A study of Mus musculus with 6 samples.

Results

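The mitochondrial ribosomal protein genes build the ribosome that works inside mitochondria. They were taken as the protein-coding genes of GENCODE M21 whose symbol is Mrpl or Mrps followed by a digit. All 78 such genes were among the 21959 genes of the deposited table, and they are called members here. The libraries are labelled as mouse neutrophils of Hepa1-6 tumours, Hepa1-6 being a mouse hepatoma cell line, split by GPR35, which is a G protein-coupled receptor. Of the 6 libraries, 3 are labelled GPR35 negative and 3 GPR35 positive. Strain, age, treatment, time and the way the cells were sorted were not given in the sources used here. No label states that replicates are separate animals. The p-values therefore reflect the spread among these 6 samples and no more, and that spread may be technical.

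Mitochondria keep their own small genome, whose messenger RNAs code for core subunits of the respiratory chain. Those messages are translated by a mitochondrial ribosome with a large and a small subunit. Its ribosomal RNAs come from the mitochondrial genome, while its proteins are encoded in the nucleus, made in the cytosol and imported. Many of these proteins have bacterial counterparts, and others exist only in mitochondrial ribosomes. Mature neutrophils are known for drawing most of their energy from glycolysis and for holding few mitochondria.

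The values are FPKM, fragments scaled to the length of a gene's exons and to the reads of the library. With GENCODE exon lengths the FPKM steps gave whole reads, for 97.7% of values above 0 within 0.02 reads and for every value of the 78 members. The libraries held 15742743 to 18314105 reads assigned to genes. Gpr35 itself averaged 1.57 ± 0.398 FPKM (SD, n = 3) where the label is negative and 20.2 ± 1.89 where it is positive. Hepatocyte and hepatoma markers outweighed neutrophil markers in all 6 libraries, against the label. A list of 11 hepatocyte and hepatoma markers had summed FPKM of 24669 to 25976 in GPR35-negative and 16420 to 16819 in GPR35-positive libraries. A list of 12 mature neutrophil markers had sums of 879 to 1122 and of 9556 to 10509. A list of 10 macrophage and monocyte markers had sums of 38.0 to 52.1 and of 941 to 973. Of the markers tested, 12 of 12 for neutrophils and 9 of 9 for macrophages rose, and for hepatoma 10 of 11 fell and 1 rose. Of the 9 macrophage markers, 5 reached 1 FPKM in all 6 libraries, and 6 were tested with any 1 GPR35-positive library left out. Macrophage markers beyond those 6 were tested only through their GPR35-positive values, so they could hardly come out other than as rises. Sums of T and NK cell, endothelial and fibroblast markers stayed under 55 FPKM in each library, with Cdh5, an endothelial marker, listed at 0 in GPR35-negative libraries. The part of this difference in make-up in any result below was not tested. In bulk RNA, fewer cells of a type and less RNA per cell cannot be told apart.

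Messages for mitochondrial ribosomal proteins were mostly lower in the GPR35-positive libraries. Of the 77 members tested, 51 fell, 2 rose (Mrpl33 and Mrpl41) and 24 were not called, by limma on log2(FPKM + 1) at a Benjamini-Hochberg adjusted p under 0.05 over all genes. Of all 10060 genes tested, 45.5% fell and 23.3% rose, so falls were common outside the family too. The members' median log2 fold change was -0.29, with quartiles of -0.37 and -0.15, against a median of -0.19 over all genes tested. As a ratio of mean FPKM the member median was 0.804, and the range ran from 0.618 to 1.93. The 3 GPR35-positive values lay below all 3 GPR35-negative values for 50 members, above them for 2, and overlapped for 25. Over all genes tested, 48.2% were lower and 24.3% higher without overlap, 72.5% together.

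How many members fell depended on how the libraries were scaled. Median-of-ratios scaling raised the median of all genes by 0.16 on the log2 scale, and TMM scaling of the recovered reads with limma-voom raised it by 0.18. With median-of-ratios and TMM scaling 12 and 7 members fell and 5 and 7 rose, and 23.9% and 22.3% of all genes fell. The share of calls that were higher over all genes went from 33.9% to 54.8% and 57.4%. Relative to the median of all genes the member median was -0.10 in the deposited scaling, and -0.08 in each of the others. It was also -0.08 in the deposited scaling with a pseudocount of 0.1 or with limma-voom on reads scaled to library totals. Within limma-voom the median of all genes was -0.23 with library totals and -0.01 with TMM. Falls and rises given below are in the deposited scaling unless another is named.

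**Figure D1:**
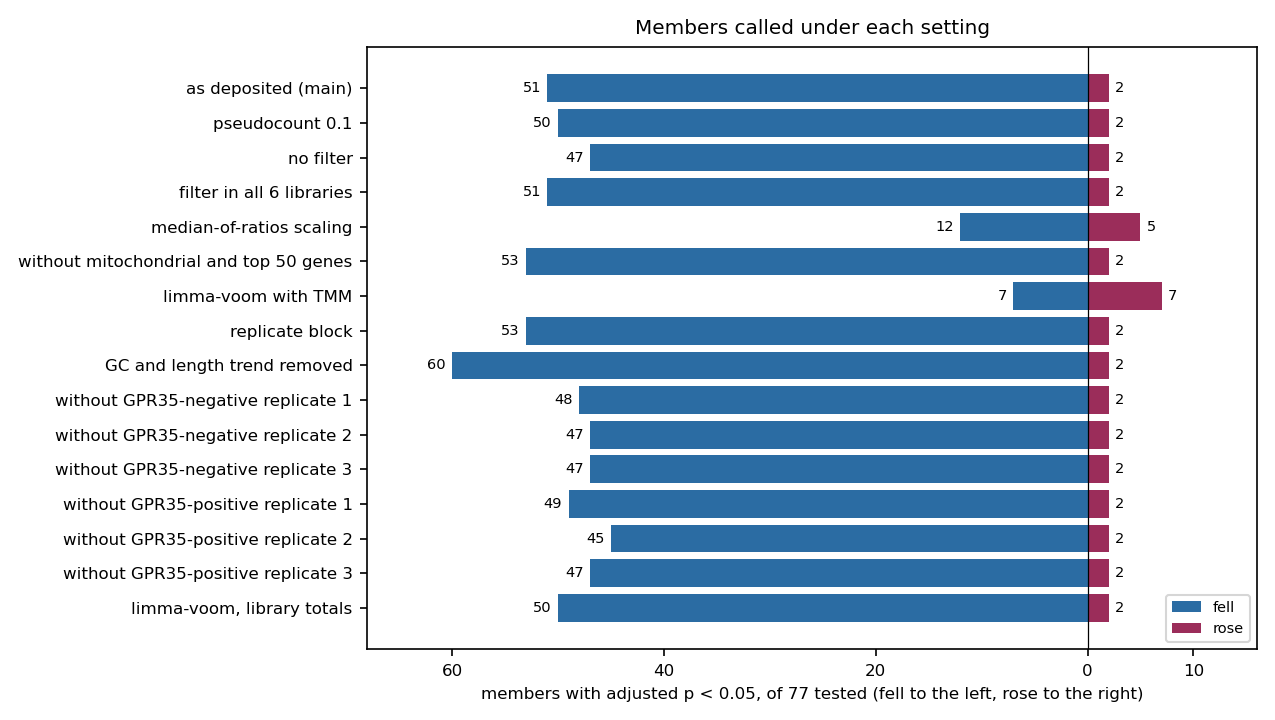
Number of the 77 tested members with a limma adjusted p under 0.05 that fell (to the left) or rose (to the right) under each setting. The bars reach 45 to 60 falls in most settings and 12 and 7 falls under median-of-ratios scaling and limma-voom with TMM. Of all genes tested, 45.5% fell in the main setting, and 23.9% and 22.3% with those scalings.

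**Figure D2:**
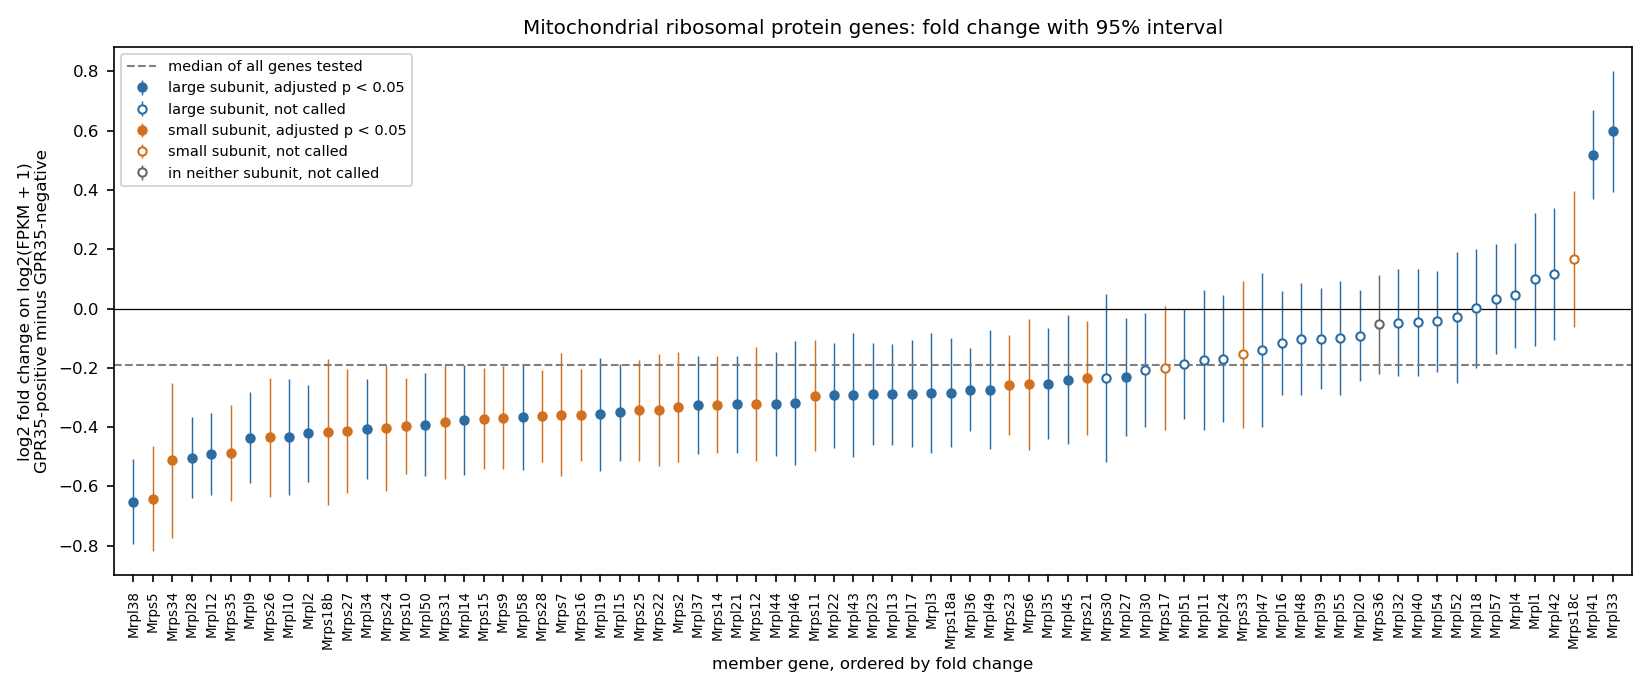
Log2 fold change on log2(FPKM + 1), GPR35-positive minus GPR35-negative, of the 77 members tested, in order, with 95% intervals from limma; filled points have an adjusted p under 0.05, colours give the subunit and the dashed line is the median of all genes tested. The quartiles of the members are -0.37 and -0.15, with Mrpl38 and Mrps5 lowest and Mrpl41 and Mrpl33 alone far above 0. Under median-of-ratios scaling and limma-voom with TMM the median of all genes is -0.03 and -0.01, and 12 and 7 members are then called below 0.

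Summed over the family, the deposited FPKM were lower in every GPR35-positive library. The member FPKM summed to 2662, 2601 and 2843 in GPR35-negative libraries 1 to 3 and to 2289, 2081 and 2234 in GPR35-positive libraries 1 to 3. The sums did not overlap, and the ratio of the group means was 0.815. With median-of-ratios scaling the sums were 2471, 2420 and 2678 against 2439, 2225 and 2408, and with TMM factors 2466, 2389 and 2664 against 2485, 2224 and 2414. The groups then overlapped, at ratios of 0.934 and 0.947. The members took 0.610 ± 0.0258% of the reads assigned to genes in GPR35-negative and 0.494 ± 0.0247% in GPR35-positive libraries (SD, n = 3). Within the GPR35-negative group, library 3 had the highest value for 48 of 77 members and library 2 the lowest for 42. Within the GPR35-positive group, library 2 had the lowest value for 56 of 77. Replicate spread was small: the median coefficient of variation over members was 6.20% in GPR35-negative and 7.25% in GPR35-positive libraries. Each tested member had 128 to 4787 reads in each library.

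By place in the ribosome, both subunits had members that fell, and the difference between them was not tested. Over all genes tested, 45.5% fell and 23.3% rose, at a median of -0.19. Of 26 small-subunit members 23 (88.5%) fell and none rose, with a median log2 fold change of -0.36. The 3 small-subunit members not called were Mrps17 (-0.20), Mrps33 (-0.15) and Mrps18c (0.17), named after their values were seen. Of 50 large-subunit members 28 (56%) fell, 2 rose and 20 were not called, with a median of -0.26. The small-subunit median was also the lower one with median-of-ratios scaling (-0.17 against -0.07) and with TMM (-0.16 against -0.05). With these 2 scalings 5 and 3 of the 26 small-subunit members fell, and 1 rose with each. Of the 50 large-subunit members 7 and 4 fell, and 4 and 6 rose. Over all genes 23.9% and 22.3% fell. The summed FPKM of the small subunit was 0.786 times as high in GPR35-positive as in GPR35-negative libraries, and that of the large subunit 0.825 times. The ratio of the small to the large sum was 0.431, 0.439 and 0.461 in the GPR35-negative and 0.420, 0.419 and 0.430 in the GPR35-positive libraries. The lowest GPR35-negative ratio, 0.431, and the highest GPR35-positive ratio, 0.430, were next to each other. By ancestry, 32 of 46 members with a bacterial counterpart fell and 1 rose (median -0.29), against 19 of 31 mitochondria-specific members that fell and 1 that rose (median -0.28).

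Among large-subunit members the fall was deepest for Mrpl38, a mitochondria-specific protein (GRCm38 chr11:116131817-116138868). It measured 64.0, 67.6 and 67.8 FPKM in the GPR35-negative and 40.7, 43.0 and 42.1 in the GPR35-positive libraries. All 3 GPR35-positive values were far below the GPR35-negative ones, and the log2 fold change was -0.65 ± 0.06 (SE, limma adjusted p = 1.11e-05). Mrpl28, the counterpart of bacterial L28 (chr17:26123500-26126613), had the highest level of the family. It measured 194, 188 and 199 FPKM against 140, 133 and 136, a log2 fold change of -0.50 ± 0.06 (adjusted p = 6.23e-05). Its groups were apart by several times their spread. Mrpl12, the counterpart of the bacterial L7/L12 stalk protein and also a binding partner of the mitochondrial RNA polymerase (chr11:120484613-120489065), measured 81.7, 81.2 and 83.8 FPKM against 56.5, 58.4 and 59.8. It fell by 0.49 ± 0.06 on the log2 scale (adjusted p = 7.42e-05), again with no overlap. Mrpl9, the counterpart of bacterial L9 (chr3:94443318-94451130), measured 29.9, 29.7 and 28.1 FPKM against 20.4, 21.7 and 22.0, and fell by 0.43 ± 0.07 (adjusted p = 0.000356).

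Among small-subunit members Mrps5 fell most. It is the counterpart of bacterial S5, a protein near the site where messenger RNA enters (chr2:127587222-127606829). It measured 15.3, 16 and 14.9 FPKM against 8.73, 9.97 and 9.88, a log2 fold change of -0.64 ± 0.08 (limma adjusted p = 6.46e-05). Every GPR35-positive library was below 10 FPKM, and every GPR35-negative one was above 14. Mrps35, a mitochondria-specific protein (chr6:147042764-147073991), measured 14.8, 15.4 and 14.5 FPKM against 10.6, 9.90 and 10.5, and fell by 0.49 ± 0.07 (adjusted p = 0.000236).

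Another 2 mitochondria-specific small-subunit members fell with a wider spread. Mrps26 (chr2:130563742-130568695) measured 14.3, 16 and 17.2 FPKM against 11.8, 10.5 and 12.1, and fell by 0.43 ± 0.09 (limma adjusted p = 0.0018). Mrps34 (chr17:24895116-24897502) measured 6.83, 6.09 and 8.71 FPKM against 4.64, 4.42 and 5.08, and fell by 0.51 ± 0.12 (adjusted p = 0.00316). In both the groups stayed apart, with GPR35-negative library 3 highest. Both calls were lost with TMM scaling, at adjusted p = 0.051 for Mrps26 and 0.06 for Mrps34. Of the exon bases of Mrps34, 63.4% also lie in Mapk8ip3 on the opposite strand and 37% in Nme3 on the same strand. Nme3 is listed at 0 in every library, and whether strand was counted was not given in the sources used here, so reads of these genes cannot be told apart. The other 6 of the 8 deepest falls, and Mrps10, fell under every one of 15 alternative settings.

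**Figure D3:**
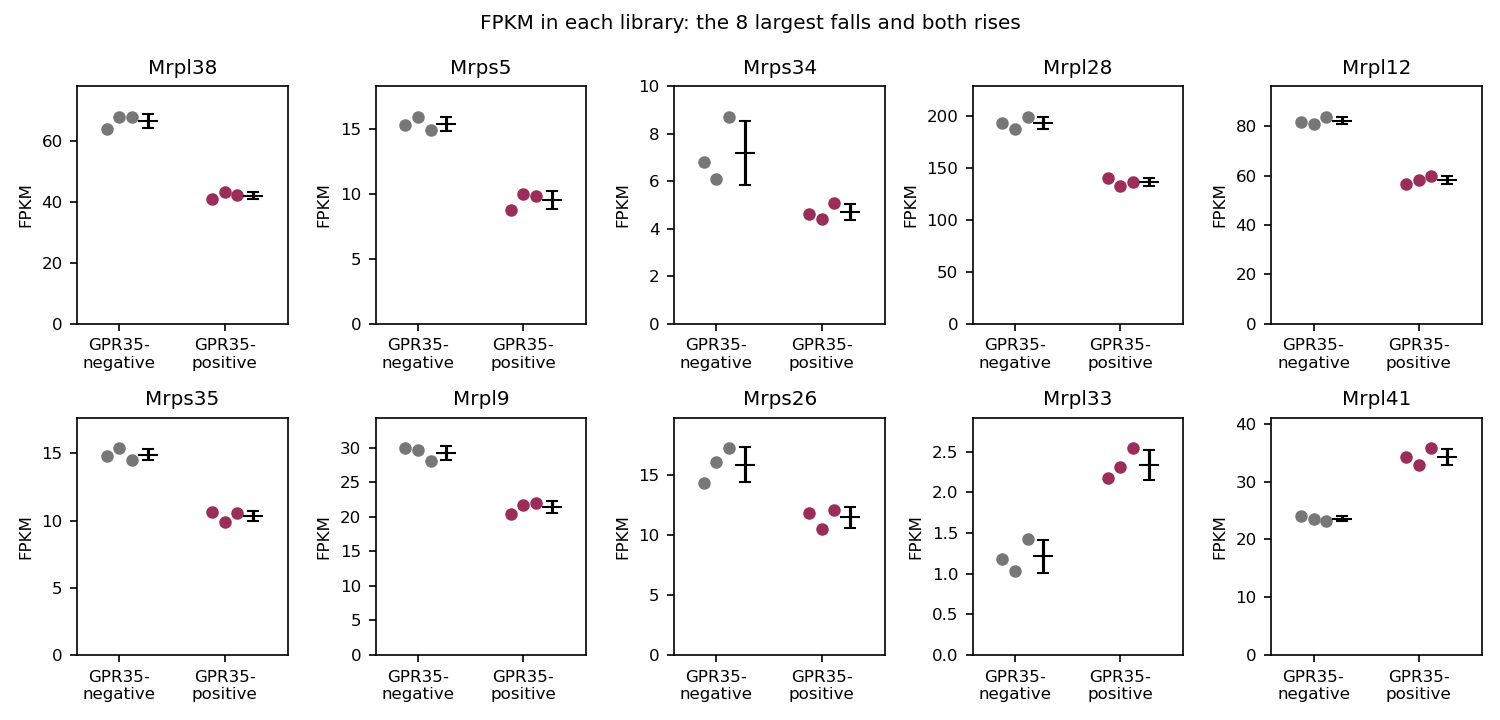
FPKM of the 8 members with the deepest falls and of both members that rose, with 1 point for each library (in order 1 to 3) and the mean ± SD (n = 3) beside them; axes start at 0 and differ between panels. In every panel the groups are apart: Mrpl38 sits at 64.0 to 67.8 against 40.7 to 43.0 FPKM, while Mrpl41 sits at 23.2 to 24.0 against 32.9 to 35.7 FPKM.

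The 2 members that rose both belong to the large subunit. Mrpl41 is a mitochondria-specific protein that has also been described as a partner of the survival factor Bcl-2 (chr2:24974117-24975098). It measured 24.0, 23.6 and 23.2 FPKM in GPR35-negative and 34.2, 32.9 and 35.7 in GPR35-positive libraries. Every GPR35-positive value was above every GPR35-negative one, at a ratio of 1.45 and a log2 fold change of 0.52 ± 0.07 (SE, limma adjusted p = 8.44e-05). No exon base of Mrpl41 lies in another gene. Its fold change was 0.31 once a trend on GC content and exon length was removed, and still called.

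Mrpl33, the counterpart of bacterial L33 (chr5:31596935-31664384), had the lowest level of the tested members. It measured 1.18, 1.03 and 1.43 FPKM against 2.18, 2.32 and 2.54, which came from 149, 128 and 165 reads against 273, 277 and 341. The groups did not overlap, and the ratio of the means was 1.93. On the log2(FPKM + 1) scale, which understates changes of low genes, the fold change was 0.60 ± 0.09 (adjusted p = 0.000274). It was 0.90 with a pseudocount of 0.1 and 1.18 with limma-voom and TMM. The annotated exons of Mrpl33 cover 7326 bases in all, while its principal transcript has 478 bases. Which of these bases carry the reads cannot be seen in gene-level values. Both genes rose under every one of the 15 alternatives.

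Several members named for the small subunit are found elsewhere. Mrps18a, Mrps18b and Mrps18c are 3 relatives of bacterial S18, of which Mrps18a sits in the large subunit. Mrps18a measured 49.1, 43.4 and 49.6 FPKM against 41.7, 35.7 and 38.9 and fell (log2 fold change -0.28 ± 0.08, limma adjusted p = 0.0113). Mrps18b measured 16.4, 16.2 and 20.1 FPKM against 13.4, 11.1 and 14.2 and fell (-0.42 ± 0.11, adjusted p = 0.00697). Mrps18c measured 9.92, 8.34 and 10.4 FPKM against 10.3, 10.1 and 12.2, and its groups overlapped (0.17 ± 0.10, adjusted p = 0.172). Of the exon bases of Mrps18b, 30.5% also lie in Gm16279 on the opposite strand. Of those of Mrps18c, 23.2% also lie in Gm43511 on the same strand. A link to divergence was not tested. Of the 3 relatives both divergent ones fell, and the one closest to the bacterial protein was not called. With median-of-ratios and TMM scaling neither fall was called and Mrps18c rose, by 0.35 and 0.41.

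Mrps30, which sits in the large subunit, varied most among GPR35-negative libraries, at 15.0, 19.6 and 22.6 FPKM against 16.9, 14.7 and 16.1. It overlapped and was not called (-0.23 ± 0.13, limma adjusted p = 0.126), but without GPR35-negative library 1 it was called at -0.39 (adjusted p = 0.006). Mrps36, since found to belong to the 2-oxoglutarate dehydrogenase complex of the citric acid cycle rather than to the ribosome, measured 34.0, 33.2 and 36.7 FPKM against 36.0, 32.0 and 32.1. Its log2 fold change was -0.05 with an interval from -0.22 to 0.11 (adjusted p = 0.541), though it was called at -0.27 with the GC and length trend removed. Mrpl58, a peptidyl-tRNA hydrolase that frees stalled mitochondrial ribosomes, measured 22.9, 24.3 and 25.9 FPKM against 20.2, 17.8 and 18.1 and fell without overlap (-0.37 ± 0.08, adjusted p = 0.00241). Mrpl58 was not called with median-of-ratios or TMM scaling.

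The members nearest to no difference were large-subunit proteins. Mrpl18 measured 30.9, 31.2 and 35.8 FPKM against 35.9, 29.5 and 32.6, with a log2 fold change of 0.00 and an interval from -0.20 to 0.20. Mrpl52 (-0.03), Mrpl57 (0.03), Mrpl4 (0.04) and Mrpl54 (-0.04) followed, all with overlapping groups. The intervals of these 5 members reach at most 0.25 from 0 in either direction. In TMM scaling Mrpl4 and Mrpl57 rose, by 0.26 and 0.25.

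Levels differed far more between members than between groups. The mean FPKM over the 6 libraries ran from 1.78 for Mrpl33 to 165 for Mrpl28, a 92.7-fold range around a median of 21.5. Next to Mrpl28 stood Mrpl14 (102 FPKM), Mrpl27 (89.7), Mrps24 (85.6) and Mrps7 (77.4). Next to Mrpl33 stood Mrpl47 (3.47), Mrpl48 (3.73), Mrpl1 (4.24) and Mrps34 (5.96). The order was almost the same in both groups, with a Spearman correlation of 0.99 over the 77 genes between the mean levels in the 2 groups, which share gene lengths and the authors' counting.

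Of the 5 most abundant members, all fell in the deposited scaling. Mrpl14 measured 108, 108 and 129 FPKM against 87.0, 84.9 and 92.7 (log2 fold change -0.38). Mrps24 measured 90.4, 89.5 and 113 against 74.9, 68.8 and 76.4 (-0.40), and Mrps7 measured 81.0, 81.2 and 99.5 against 73.0, 63.4 and 66.5 (-0.36). Mrpl27, at 101, 93.2 and 96.3 against 93.6, 73.5 and 80.8 FPKM, overlapped between the groups and was called only just (-0.23, limma adjusted p = 0.0396). The calls of Mrpl14, Mrps24, Mrps7 and Mrpl27 were lost with median-of-ratios and with TMM scaling, and that of Mrpl27 also when any library but GPR35-positive 1 was left out.

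The level order depended on the transcript length used. FPKM here divide by all annotated exon bases of a gene, and members with more exon bases had lower FPKM (Spearman -0.61 over 77 genes, a description in which the length enters both measures). Dividing the reads by the length of the principal transcript instead, an added comparison, gave a range of 46.8-fold and a Spearman correlation of 0.82 with the FPKM order. Mrpl33 moved from rank 77 to 49, Mrpl42 from 27 to 2, Mrpl23 from 42 to 6, Mrps10 from 45 to 5 and Mrpl13 from 61 to 18. Mrpl28 stayed first. Fold changes are not touched by this choice, beyond the weight of the pseudocount, since the length of a gene is the same in every library.

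**Figure D4:**
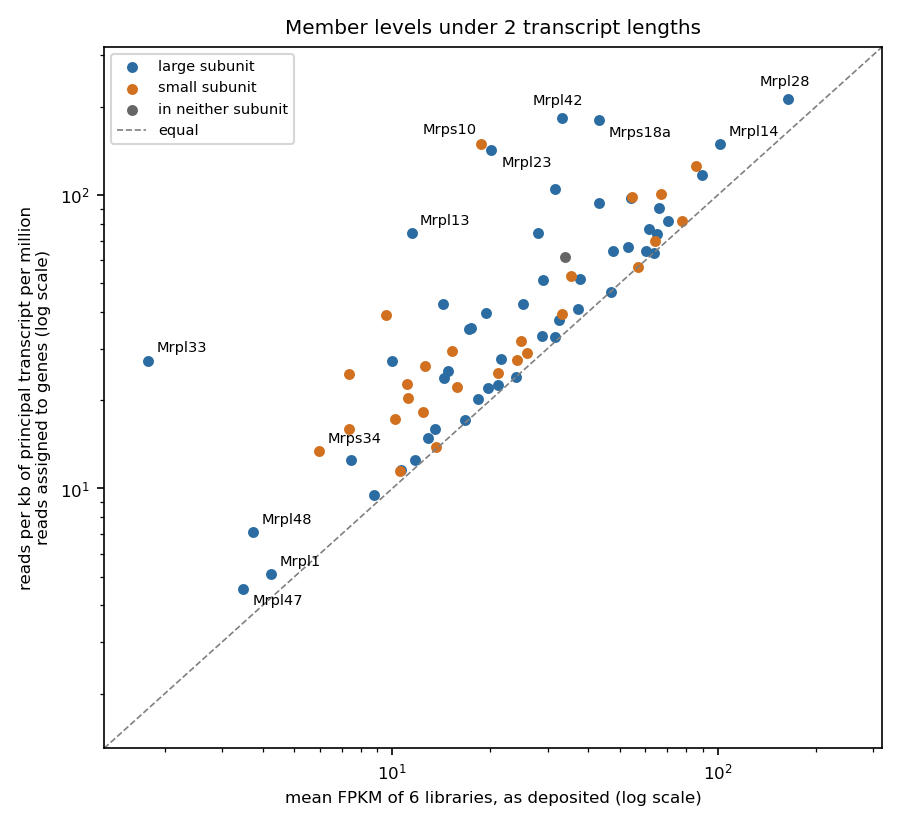
Mean level of the 77 tested members under 2 lengths, both axes on a log scale: FPKM as deposited (x) and reads per kilobase of principal transcript, scaled to library totals as FPKM are (y), coloured by subunit, with the line of equality. Mrpl33, Mrpl13, Mrpl23, Mrps10 and Mrpl42 stand farthest above the line, and Mrpl28 is highest on both axes.

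Mrpl53, a large-subunit member, was listed at 0 in all 6 libraries and was not tested. Of its 790 exon bases, 88% also lie in the gene Gm42688 on the same strand. Gm42688 itself was at 0 in 3 libraries and at most 0.032 FPKM in the others. In all, 33 members share exon bases with another gene, and 17 of the 78 share at least 10%. Among the 61 tested members with less than 10% in another gene, 39 fell and 2 rose (median -0.29), and among the 16 with more, 12 fell (median -0.35). Of all genes tested in the same deposited scaling, 45.5% fell and 23.3% rose, at a median of -0.19. GENCODE also lists 5 processed pseudogenes named after Mrpl23, Mrpl48 and Mrps36, whose reads may be shared with those members.

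The promoters of the members were searched for the words of known control elements. Genes for mitochondrial proteins are known to be driven by the factors NRF1, GABP (an ETS factor) and YY1. RefSeq windows on GRCm38.p6, from 250 bases before to 50 after the start, matched 69 of the 78 members. Each window was searched on both strands for GCGCA and GCGC with 1 free base between (NRF1), CCGGAAG (ETS), AAGATGGC (YY1) and CACGTG (E-box, bound by Myc among others). None of these words contains another. The following stretches upstream of the start are shown for the deepest falling NRF1 gene printed here (Mrpl12), for a gene with NRF1 and ETS matches (Mrpl17), for a small-subunit gene with an ETS match at the start (Mrps22), and for Mrpl41, which rose. Capitals mark the matches, and Mrpl41 has none. The falling genes shown were picked for their matches. Mrpl33, the other member that rose, has an ETS match in its window. Mrpl28, Mrps5 and Mrps10, which fell, have no match to any of these words.
Mrpl12, + strand, chr11:120484387-120484612: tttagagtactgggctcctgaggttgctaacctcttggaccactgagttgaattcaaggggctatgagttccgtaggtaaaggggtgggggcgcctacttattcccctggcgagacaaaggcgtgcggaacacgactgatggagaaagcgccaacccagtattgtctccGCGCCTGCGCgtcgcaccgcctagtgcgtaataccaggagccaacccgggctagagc
Mrpl17, - strand, chr7:105811100-105811337: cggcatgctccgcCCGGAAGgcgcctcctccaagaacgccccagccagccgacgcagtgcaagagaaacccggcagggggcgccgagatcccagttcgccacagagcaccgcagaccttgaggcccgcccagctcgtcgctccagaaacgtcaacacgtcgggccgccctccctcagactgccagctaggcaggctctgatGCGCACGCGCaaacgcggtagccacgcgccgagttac
Mrps22, - strand, chr9:98601680-98601929: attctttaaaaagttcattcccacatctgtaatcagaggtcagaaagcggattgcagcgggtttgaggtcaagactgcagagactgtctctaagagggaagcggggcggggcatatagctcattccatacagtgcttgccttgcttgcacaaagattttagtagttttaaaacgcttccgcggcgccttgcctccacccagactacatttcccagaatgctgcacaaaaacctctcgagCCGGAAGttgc
Mrpl41, - strand, chr2:24975099-24975348: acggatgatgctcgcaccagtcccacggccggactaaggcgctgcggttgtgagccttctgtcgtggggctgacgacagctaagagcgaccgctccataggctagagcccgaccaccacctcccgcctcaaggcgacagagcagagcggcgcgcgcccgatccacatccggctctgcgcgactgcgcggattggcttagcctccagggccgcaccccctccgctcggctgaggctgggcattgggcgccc

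The ETS word was the most frequent. It was in the windows of 26 of 69 members (37.7%), against 21.8% of the 7984 tested genes with a window and 9.93% of all 27025 genes with one. The NRF1 word was in 13 members (18.8%), against 12.1% and 5.19%. The YY1 word was in 12 members (17.4%), against 5.61% and 3.19%. The E-box was in 5 members (7.25%), against 12.4% and 8.09%. Among the 44 members that fell and have a window, 38.6% held the ETS word, and among the 22 not called 31.8% did. For YY1 the shares were 22.7% and 9.09%, for NRF1 20.5% and 18.2%, and for the E-box 6.82% and 9.09%. None of these differences was tested. These shares describe letters in a window, and a match is not a shown binding site.

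Of the 12 YY1 matches, 8 lay at or after the start, in several cases over the start codon itself. In 6 of 69 members (8.7%) the ATG within the YY1 word is the annotated start codon, against 1.77% of tested genes and 0.611% of all genes with a window. Those 6 are shown because the word lies at the same place in genes of both subunits, with the word in capitals.
Mrpl35, - strand, chr6:71823746-71823769: caggctgcAAGATGGCggcttcca
Mrpl49, - strand, chr19:6057724-6057747: gaggcgccAAGATGGCagcagcgg
Mrps7, + strand, chr11:115604150-115604173: cagcggccAAGATGGCtgcccccg
Mrps18a, + strand, chr17:46111007-46111030: tgcgttccAAGATGGCggccctca
Mrps24, - strand, chr11:5707652-5707673: gccggcccAAGATGGCgtggtc
Mrps27, + strand, chr13:99344792-99344815: tgcgctccAAGATGGCggctccca
All 6 of these genes are among the 51 members that fell in the deposited scaling, in which 45.5% of all genes fell. Of the 69 members with a window, 44 fell. None of the 6 was called with median-of-ratios or TMM scaling. In Mrpl37, which fell, and Mrpl42, which was not called, the word lies after the start but its ATG is not the annotated start codon.

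Other genes of mitochondrial translation had falls in the deposited scaling too, where 45.5% of all genes tested fell at a median of -0.19, and no list was tested against that background. Of 5 mitochondrial ribosomal proteins that carry other symbols, Dap3, Ptcd3 and Chchd1 fell, and Aurkaip1 and Gadd45gip1 were not called (median log2 fold change -0.31). Ptcd3, a small-subunit protein with RNA-binding repeats, went from 22.5 ± 0.338 to 16.5 ± 1.92 FPKM (SD, n = 3). The call of Chchd1 was lost with median-of-ratios scaling (log2 fold change -0.12, limma adjusted p = 0.357), with TMM (-0.10, adjusted p = 0.479), with no filter (-0.31, adjusted p = 0.052) and without GPR35-positive library 2 (-0.24, adjusted p = 0.0718). Of 14 translation factors tested, 7 fell and none rose (median -0.24). Tufm, the elongation factor that brings charged tRNAs to the ribosome, went from 40.7 ± 1.75 to 28.2 ± 2.09 FPKM. Tsfm, another elongation factor, went from 33.9 ± 0.358 to 22.6 ± 1.378 FPKM. Lrpprc, which stabilises mitochondrial messages, went from 26.4 ± 3.73 to 15.4 ± 0.662 FPKM.

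Of 21 genes for ribosome assembly and ribosomal RNA modification, 15 fell and 1 rose (median -0.30). Noa1, a GTPase of ribosome assembly, went from 16.1 ± 1.71 to 9.62 ± 0.896 FPKM, and Mrm3, a methyltransferase of the large ribosomal RNA, from 21 ± 0.0727 to 14.7 ± 1.35. Ddx28, a helicase of large-subunit assembly, rose from 9.77 ± 1.14 to 12.1 ± 0.664 FPKM (limma adjusted p = 0.0215). That call was lost without GPR35-negative library 3 (0.19), GPR35-positive library 1 (0.25) or GPR35-positive library 2 (0.28). Of 20 mitochondrial aminoacyl-tRNA synthetases, which charge the tRNAs, 13 fell and none rose (median -0.28). Iars2 had a log2 fold change of -0.74, from 14.3 ± 2.08 to 8.21 ± 1.36 FPKM.

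Genes that keep and transcribe the mitochondrial genome had a lower median still. Of 12 tested, 9 fell and 1 rose (median -0.39). Polrmt, the mitochondrial RNA polymerase, went from 4.23 ± 0.475 to 2.37 ± 0.203 FPKM, and Polg, the catalytic subunit of the mitochondrial DNA polymerase, from 3.65 ± 0.403 to 1.92 ± 0.390. Polg2, its accessory subunit, rose from 2.83 ± 0.157 to 3.84 ± 0.0215 FPKM (limma adjusted p = 0.0035), so the 2 subunits of that enzyme moved in opposite directions. With median-of-ratios and TMM scaling, 5 and 5 of the translation factors, 6 and 5 of the assembly genes, 7 and 6 of the synthetases and 6 and 5 of the genome genes fell. Of the 5 proteins under other symbols, 1 fell and 1 rose with each. Among the assembly genes 2 rose with each, and among the synthetases none rose with median-of-ratios and 1 with TMM.

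Other large families give the scale for the members' shift. Cytosolic ribosomal proteins had a lower median, -0.42, with 71 of 81 tested that fell and 3 that rose (of which Rpl3l was tested only through its GPR35-positive values), and their summed FPKM was 0.748 times as high in GPR35-positive libraries. Nuclear-encoded respiratory chain subunits had a median of -0.23, with 46 of 75 that fell, and a ratio of sums of 0.845. The members, at -0.29 and 0.815, lay between these families, and no difference between lists was tested. Hepatocyte and hepatoma markers had a median of -0.61, with 10 of 11 that fell and 1 that rose, and a ratio of sums of 0.655. The ratio of the members' sums was nearer to 1 than that of the hepatoma markers. With median-of-ratios and TMM scaling the medians were -0.22 and -0.20 for cytosolic ribosomal proteins, -0.04 and -0.02 for respiratory chain subunits and -0.11 and -0.10 for the members, so the order of the 3 families was kept. The respiratory chain genes were then split, with 12 and 5 that fell and 5 and 6 that rose, while 43 and 40 cytosolic ribosomal protein genes still fell.

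**Figure D5:**
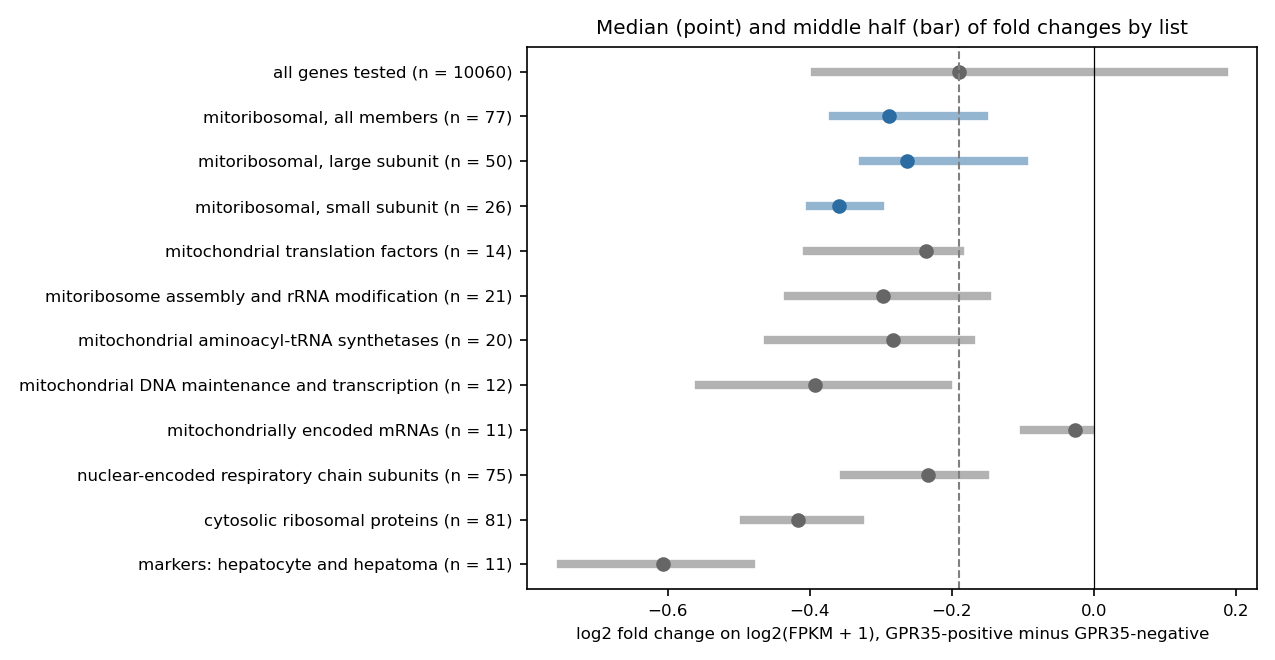
Median (point) and middle of the distribution, from the lower to the upper quartile (bar), of log2 fold changes on log2(FPKM + 1), GPR35-positive minus GPR35-negative, for the members (blue) and other gene lists (grey); the dashed line is the median of all genes tested. The small subunit lies at -0.36 and the large at -0.26, between cytosolic ribosomal proteins (-0.42) and respiratory chain subunits (-0.23); with median-of-ratios and TMM scaling the list of mitochondrially encoded messages has a median above 0, and with the GC and length trend removed one of -0.41.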

How the data were processed

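RNA was measured in 3 GPR35-negative and 3 GPR35-positive mouse libraries that are neutrophils by their label, although hepatoma markers outweighed neutrophil markers in all 6. Per the labels' protocols, Trizol was used to extract total RNA, and libraries were made with a NEBNext Ultra II RNA kit. Per the file headers, the deposited values are FPKM, in 1 table. The submitters' processing notes name HTSeq 0.9.1, HISAT2 2.1.0, DESeq 1.38.3 and fastp 0.22.0 with no role, and the human build GRCh38, while the gene IDs are mouse. The annotation was not given in the sources used here. Symbols, positions and exon lengths came from GENCODE M21 (GRCm38), which listed 21851 of the 21959 IDs.

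Genes with at least 1 FPKM in 3 or more libraries were tested, two-sided, on log2(FPKM + 1) with limma 3.58.1 (trend) in R 4.3.3, with group as the only term. Adjusted p-values are Benjamini-Hochberg over all genes tested, at 0.05, and all are from limma. Reads were recovered from the FPKM steps, and precision follows from the 15742743 to 18314105 reads assigned to genes in a library. The scripts were tested on simulated data. The mean chi-square per gene between replicates was 4.82 to 19.7, above sampling noise. A mean can be carried by a few abundant genes, so it cannot decide whether a library was a resequencing of another. Nor can it tell repeat preparations of 1 sample from separate samples. Members, lists, tests and alternatives were chosen with earlier results of these data known. Genes named are the 8 deepest falls and all rises, the 5 highest and 5 lowest levels, the 5 largest p, members of special place or role, and up to 3 genes in each direction of each other list by smallest p. Those named outside the rule, such as Mrps10, the 3 small-subunit members not called, the rank shifts and the printed promoters, were chosen after their values were seen. Promoter sequences are from RefSeq (GRCm38.p6). Alternatives were another pseudocount, other filters, other scalings, limma-voom on recovered reads, a replicate block, leaving out each library and a GC and length trend removed. Limma-voom scaled to library totals and the level per principal transcript were added after seeing the data. Python 3.11.15 was used with pandas 2.3.3, numpy 2.4.6 and, for figures, matplotlib 3.10.9.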

Additional observations from a re-analysis of the deposited data

How the results depend on the processing

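Over 15 alternatives, 7 members fell in all (Mrpl9, Mrpl12, Mrpl28, Mrpl38, Mrps5, Mrps10 and Mrps35), Mrpl33 and Mrpl41 rose in all, and no member's call changed sign. Scaling moved the counts most. With median-of-ratios scaling 2401 genes fell in place of 4575, 17 members were called in place of 53 (5 rose, 12 fell), the member median was -0.11 and 33 genes of the other mitochondrial lists were called in place of 53. With limma-voom and TMM 2244 genes fell, 14 members were called (7 rose, 7 fell), the member median was -0.10 and 31 genes of those lists were called. Removing the GC and length trend gave a member median of -0.36 and turned mt-Cytb from a rise of 0.32 to -0.012 (limma adjusted p = 0.916). For these 3 settings the cause was not tested. Leaving out 1 library gave 45 to 49 members that fell, 2 that rose, and a median of -0.32 to -0.26. Of all genes in those fits 38.8% to 44.9% fell and 17.2% to 23.8% rose. Of the 51 falls, 43 were kept without each library in turn. Lost were Mrpl27, Mrpl45, Mrpl49 and Mrps6 without GPR35-negative library 1; Mrpl27, Mrpl3, Mrpl35 and Mrps6 without library 2; and Mrpl27, Mrpl43, Mrpl45 and Mrps21 without library 3. Lost were Mrpl43, Mrps21 and Mrps6 without GPR35-positive library 1, Mrpl27, Mrpl35, Mrpl45, Mrpl49, Mrps21 and Mrps6 without library 2, and Mrpl27, Mrpl3, Mrpl35, Mrpl45 and Mrpl49 without library 3. Deviations of same-numbered libraries from their group means had correlations of -0.0018, 0.400 and -0.064. The value of 0.400, for the libraries numbered 2, was the highest of any GPR35-negative with any GPR35-positive library. Deviations from a mean of 3 libraries are tied to each other, so these correlations cannot decide whether the numbers pair the libraries. With a replicate block 53 members fell and 2 rose, and 46.1% of all genes fell. With 3 libraries a group and possible technical replicates, the p-values carry no measure of variation between animals.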

Other observations

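For messages of the mitochondrial genome, which the mitochondrial ribosome translates, the direction depended on the setting. Of 11 mitochondrially encoded messages tested, 10 were not called in the deposited scaling and mt-Cytb rose, by 0.32 on the log2 scale with overlapping groups (limma adjusted p = 0.0226). That call was lost with no filter (0.32, limma adjusted p = 0.068) and with the GC and length trend removed (-0.012). It was also lost without GPR35-negative library 2 (0.30) or 3 (0.23) or GPR35-positive library 1 (0.24). Their median was -0.03 in the deposited scaling, 0.11 with median-of-ratios scaling and 0.19 with TMM. With the GC and length trend removed it was -0.41, and 7 of the 11 fell. Without GPR35-negative library 3 it was -0.16 and 4 fell, and without GPR35-negative library 1 it was 0.10 and 2 rose. The levels within the list were uneven: mt-Co1 was 927 FPKM and mt-Co2 and mt-Co3 were 2.65 and 2.42 FPKM in GPR35-negative libraries, although all 3 code for subunits of cytochrome c oxidase. The summed level of the list ran from 1323 to 2374 FPKM in GPR35-negative and from 1738 to 1818 FPKM in GPR35-positive libraries.

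Of 6 tested nuclear factors of mitochondrial gene expression, 3 fell in the deposited scaling, in which 45.5% of all genes tested fell. With median-of-ratios and TMM scaling 2 fell and 1 rose with each, at medians of -0.03 and -0.02. Of all genes 23.9% and 22.3% then fell. Myc, a growth-promoting transcription factor, went from 336 ± 23.9 to 211 ± 6.58 FPKM (SD, n = 3), and Pprc1, a coactivator related to PGC-1, from 5.66 ± 1.16 to 2.87 ± 0.690. Nrf1 went from 6.60 ± 0.401 to 5.62 ± 0.137 FPKM and was called only just (limma adjusted p = 0.0494), a call lost in 10 of 15 alternatives, among them each left-out library but GPR35-negative 1. Gabpa, Gabpb1 and Yy1 were not called, at log2 fold changes of -0.05, 0.11 and -0.17. Among cytosolic ribosomal proteins, Rpl26 and Rpl34 rose against 71 that fell. Rpl3l rose too, but at 0.247, 0.108 and 0.348 FPKM in GPR35-negative libraries it was tested only because it was above 1 FPKM in the GPR35-positive ones. Rpl26 went from 28.7 ± 1.505 to 55.3 ± 4.67 FPKM.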
